A study of Mus musculus with 4 samples.

Results

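Long timing transitions of mouse embryonic stem cells are described here. They are stretches of the genome in which replication timing (RT) stayed between early and late over at least 300 kb. The members were chosen by their RT in the population-based Repli-seq profile of chromosomes 1 to 19: maximal runs of at least 6 consecutive 50 kb bins with RT above -1 and below 1 in every bin, with a bin at RT 1 or above next to one end and a bin at RT -1 or below next to the other. By this rule 221 of the 1076 transitions of the autosomes were long, or 20.5% (exact 95% interval 18.2 to 23.1, which covers counting only). They held 2090 bins, 4.36% of the 47928 autosomal bins, 23.8% of the 8793 bins of intermediate RT and 43.6% of all bins in transitions. The other 855 transitions, of 1 to 5 bins, are called short here, and a further 279 intermediate runs of at least 6 bins returned to the state they came from.

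The cells were F121-9, a diploid mouse embryonic stem cell line from a hybrid cas/129 cross, grown in N2B27+2i+LIF and not treated further. Nascent DNA was labelled with BrdU, cells were sorted into an early and a late fraction of S-phase, and 2 libraries of each fraction were sequenced. RT is the log2 of early over late reads, so a positive value is early and a negative value late. The deposited profile holds 1 value per bin for 1 cell line. Its label names no replicate, and it was taken to combine all 4 libraries. No spread between replicates can therefore be given, no difference was tested over samples, and the read number per library is unknown. From the deviation of each bin from its neighbors, the noise of a bin had a robust SD of 0.14.

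In mammalian cells, DNA is copied in large domains, within which many origins fire at similar times. Between an early and a late domain lies a timing transition region, which is copied later and later with distance from the early domain, either by a few long-travelling forks or by origins that fire one after another. The 2 strands at a fork are copied differently, and over evolution a stretch that is mostly copied in 1 direction can gain more T than A and more G than C on 1 of its strands, so base composition carries a record of fork direction that RT does not use.

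Stretches from the ends of the 3 longest runs are shown first, as examples of sequence at the ends of such runs. They do not stand for the whole runs or for the other members. Each line holds 150 bases from the middle of the first or last bin of the run (mm10, plus strand, which in these 3 runs reads from the early to the late end), with each CpG in capitals.
the longest run, early end, chr12:18224926-18225075: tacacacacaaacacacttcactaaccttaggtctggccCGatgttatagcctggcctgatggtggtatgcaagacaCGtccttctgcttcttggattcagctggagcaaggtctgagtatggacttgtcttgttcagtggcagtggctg
the longest run, late end, chr12:20024926-20025075: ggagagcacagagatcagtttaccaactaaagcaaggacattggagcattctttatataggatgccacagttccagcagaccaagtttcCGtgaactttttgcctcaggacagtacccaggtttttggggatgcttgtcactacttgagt
the second run, early end, chr13:56324926-56325075: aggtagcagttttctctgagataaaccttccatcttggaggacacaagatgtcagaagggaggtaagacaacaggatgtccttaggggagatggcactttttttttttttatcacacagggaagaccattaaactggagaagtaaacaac
the third run, early end, chr6:136774926-136775075: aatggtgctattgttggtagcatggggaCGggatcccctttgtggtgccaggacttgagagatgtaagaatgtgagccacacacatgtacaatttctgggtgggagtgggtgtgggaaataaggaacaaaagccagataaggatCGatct
the third run, late end, chr6:137924926-137925075: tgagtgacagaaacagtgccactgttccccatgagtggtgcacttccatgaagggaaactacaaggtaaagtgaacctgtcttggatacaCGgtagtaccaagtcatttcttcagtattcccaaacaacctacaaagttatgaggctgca
All 5 windows lay outside exons, and that at the early end of the third run lay in an intron of Gucy2c. The bins around them had a GC content of 44.5 and 45.6% at the early and late end of the longest run, 48.5% at the early end of the second run and 44.0 and 42.4% at the ends of the third run. All 5 were above the mean of 42.3% of short transitions, and that at the late end of the third run was below the mean of 42.9% of long ones. Their RT was -0.88 and -0.65, 0.78, and 0.52 and -0.98, in the same order.

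The members ranged from 300 to 1850 kb in length, with a median of 400 kb (quartiles 300 and 550) against 150 kb for short transitions. Just inside the limit lay 61 runs of 6 bins, with a median slope of -7.22 log2 units per Mb (taken throughout between the 2 bins that bound the run on the outside), and just outside it 76 runs of 5 bins, with -8.77. Only 48 members reached 12 bins (600 kb). Over all members the median slope was -5.40 per Mb (quartiles -6.76 and -4.15), and that of short transitions -13.2. These values follow from the rule and are given as a description. The domains on either side reached similar extremes: within 1 Mb the highest RT on the early side had a median of 2.98 beside long and 3.07 beside short transitions, and the lowest RT on the late side -3.11 and -3.39.

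RT fell at every step from the early to the late end in 56 of 221 (25.3%, 19.7 to 31.6). In 97 it also rose against the direction by at most 0.5, and in 68 (30.8%, 24.8 to 37.3) by more than 0.5, a limit chosen after the values were seen. These are called one-way runs, small reversals and large reversals. The rise exceeded 1 in 27 members. RT crossed 0 a single time in 156 members, 3 times in 58, 5 times in 5 and 7 times in 2. A straight line explained 90% or more of the variance of RT in 79 members and under 50% in 42.

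The shape changed with length. Of the 61 runs of 6 bins, 36 were one-way and none had a large reversal, and of the 48 runs of at least 12 bins none was one-way, 42 had a large reversal and 37 crossed RT 0 at least 3 times. Of the short transitions, 839 of 855 were one-way and all crossed RT 0 once. These counts describe the RT values that chose the members: a run that stays within the limits over more bins has to be shallower and has more steps at which to rise, so no more is read from the change with length. Among the 48 there were also 11 that crossed RT 0 once and 6 with a small reversal. With a running median over 5 bins before the rule was applied, 41.2% of the long transitions were one-way.

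**Figure D1:**
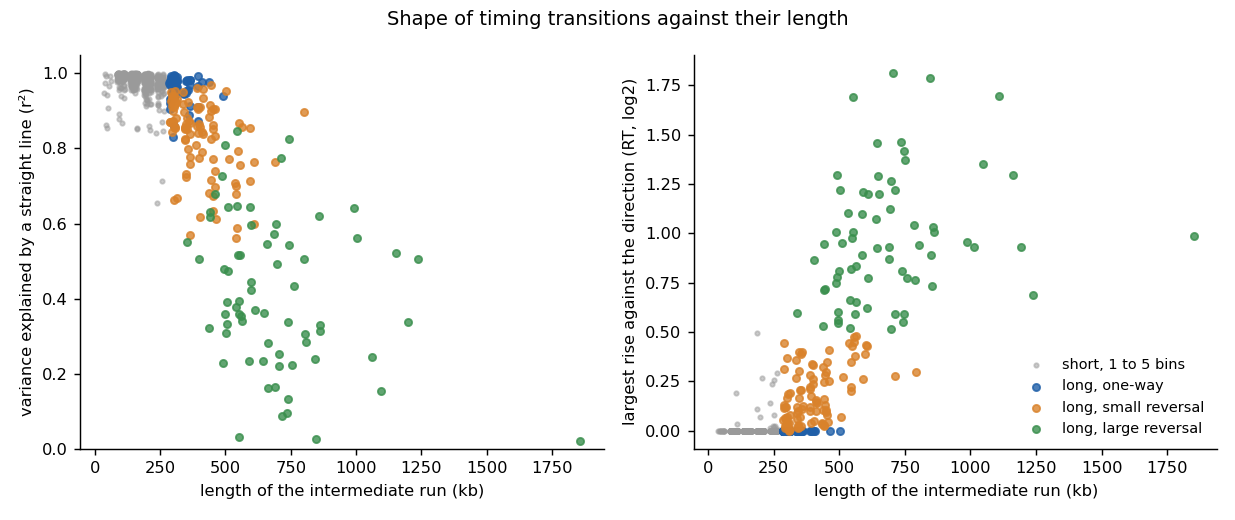
Each point is a timing transition, placed by the length of its run of intermediate bins in kb (jittered by up to 15 kb) and, on the left, by the share of the variance of RT that a straight line explained or, on the right, by the largest rise of RT (log2) against the early-to-late direction. Short transitions (grey, n = 855) lie near a straight line, and from 600 kb on 42 of the 48 long ones are large reversals.

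The longest run covered chr12:18200001-20050000, 37 bins. Beside an early bin of RT 1.0338 its first bin had -0.88, and from there RT moved between -0.91 and 0.08 over 1850 kb, with a median of -0.49, until the next bin at -1.27. Of its 38 steps, those into and out of the run included, 17 went down and 21 up. The r2 of a straight line was 0.02. The run was an abrupt step followed by a shelf. It was rich in repeats, with 44.0% of bases masked, and protein-coding genes covered 1.14% of it, 5730507C01Rik and the short gene model Gm21863. Reads from repeated sequence can be hard to place, and the part this plays in its RT was not tested.

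The second, chr13:56300001-57550000, crossed RT 0 7 times. RT fell from 0.78 to 0.29 over the first 3 bins, then stayed between -0.24 and 0.45 over 19 bins, and dropped from -0.10 to -1.0 over the last 4. Of 10 protein-coding genes in it, those with the largest overlap were Spock1, which encodes a testican proteoglycan, Trpc7, a cation channel, and Smad5, a transducer of BMP signals. Trpc7 began at RT 0.07 and ended at 0.27, and Smad5 lay within 1 bin at RT -0.0047. The third, chr6:136750001-137950000, also crossed 7 times and ran over Ptpro, a receptor tyrosine phosphatase (start -0.27, end 0.01), Eps8, an actin regulator (0.27 and 0.01), and Rerg, a Ras-like GTPase (0.66 and 0.11).

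The fourth and eighth longest runs, chr13:19450001-20600000 and chr13:18400001-19400000, met at 1 early bin of RT 1.29 that served both as the early end. In the fourth, RT fell to -0.55, rose again to 0.74 in the bins around the start of Elmo1, which encodes an activator of Rac signalling at the membrane, and then fell to -0.92 within this 518 kb gene, which covered 44.3% of the run and began at RT 0.73. The eighth held Amph, for the endocytic protein amphiphysin, at RT 0.08 at its start and -0.03 at its end.

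The fifth longest run, chr4:84000001-85100000, was a wave. From its early end RT went from 0.88 down to -0.66, up to 0.81, down to -0.79, up to 0.90 and down to -0.90. Bnc2, a zinc finger gene of 400 kb, ran from the first internal peak (0.81 at its start) to the bin beside the second (0.59 at its end), and Cntln, for a centrosomal protein, led out of the run toward the early side, from -0.46 to 1.71. The sixth, chr8:91350001-92400000, began inside Fto, an RNA demethylase gene that started at RT 1.08 and ended at 0.70, and held the homeobox genes Irx3 (start 0.20) and Irx5 (-0.74). RT fell to -0.65 within Fto and returned to 0.70 at its end.

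In the seventh, chr5:26650001-27650000, Dpp6, which encodes an auxiliary subunit of voltage-gated potassium channels, covered 83.3% of the run. The gene began at RT -0.96 and ended at 1.53, 910 kb away. RT along the run peaked at 0.84, fell to -0.98 and rose once more to -0.47 before the late bin. The ninth, chr6:7900001-8750000, fell to -0.30 and came back to 0.44, over the gene model Gm45062, Umad1 and the collagen gene Col28a1. The last of the 10, chr11:7000001-7850000, fell to -0.14 and came back to 0.86, and held Adcy1, for an adenylyl cyclase, and Igfbp3, for an IGF-binding protein. All 10 of the longest runs had large reversals.

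At the other end of the range, the longest one-way run, chr7:125350001-125850000, took 10 bins from 0.88 to -0.91. Between the bins that bound it the slope was -5.05 per Mb, with a straight line explaining 94.0% of the variance. Its bins read 0.88, 0.75, 0.46, 0.39, 0.36, 0.03, -0.16, -0.26, -0.37 and -0.91 from the early end. It held the cytokine receptor genes Il4ra, which contained the crossing of RT 0, and Il21r (start at 0.36), and Gtf3c1, for a subunit of transcription factor TFIIIC (0.46). The run closest to a straight line by residual SD was chr4:3350001-3750000, with 0.07, below the noise of a bin. This run had a missing bin within 500 kb, as did 3 of 221 members in all. By r2 it was at 0.9931, behind a run on chromosome 8 (0.9944) and that within Ryr2 (0.9935). Its bins read 0.90, 0.75, 0.56, 0.12, 0.03, -0.36, -0.53 and -0.88. The kinase gene Lyn stood at its early end (0.75), followed by Tgs1, which encodes an RNA cap methyltransferase (0.12).

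**Figure D2:**
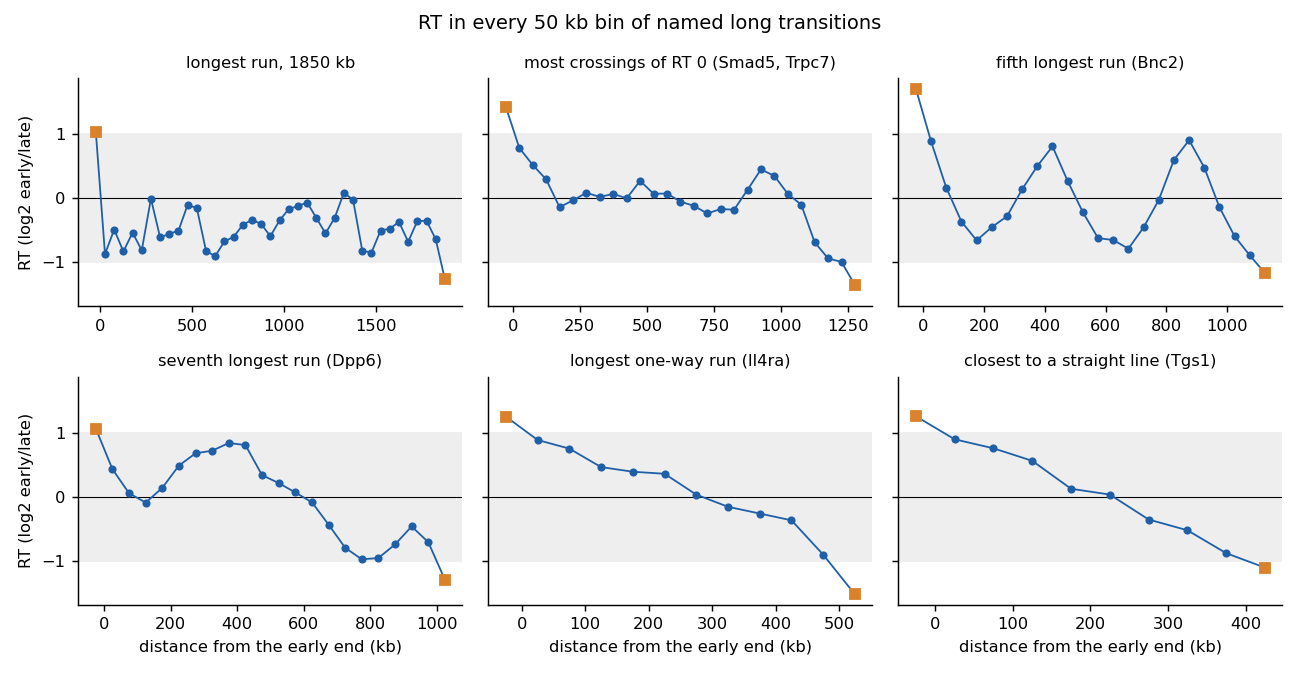
RT (log2 early over late) of every 50 kb bin of 6 long transitions (circles) against the distance in kb from the early end, with the bins that bound the run as squares and the intermediate range shaded. The longest run drops at once to a shelf near -0.49, the the runs that hold Smad5, Bnc2 and Dpp6 return above 0 inside the run, and the longest one-way run and the one closest to a straight line fall at every step.

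The reversals could be set against features that the rule did not use. In each of the 68 large reversals the largest rise ran from a trough bin (median RT -0.55) to a peak bin (median 0.52) over a median of 200 kb. Peaks held more gene starts than troughs: 30 of 68 peak bins and 7 of 68 trough bins held the start of a protein-coding gene, a mean of 10.6 ± 1.65 and 2.65 ± 1.10 starts per Mb (SE over runs, which are not replicates), with a difference of 7.94 (95% interval 4.08 to 11.8). All autosomal bins held 8.65 starts per Mb, with no start in 71.7% of bins. The bins of long transitions held 6.24 per Mb, with no start in 75.1%. Troughs lay more within gene bodies, with 58.8% ± 5.67 of the bin covered by protein-coding genes against 38.2% ± 4.66 at peaks (difference -20.6, -33.8 to -7.31). CpG per kb was higher at peaks by 1.53 (0.82 to 2.25), and the repeat-masked share differed by 0.02 percentage points (-2.49 to 2.53). Trough and peak bins were picked by RT, and start density moved with RT over all bins of long transitions, with 4.25 ± 0.44 starts per Mb at RT -1 to -0.5 and 8.86 ± 0.71 at 0.5 to 1. The part of this in the difference was not tested.

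Strand composition changed with the direction in which RT ran. On the strand read from early to late, T exceeded A by 2.33% ± 0.39 of their sum in the falling stretches of these runs (n = 67, above 0 in 54), outside annotated genes, and by 0.07% ± 0.44 in the rising stretch (n = 63, above 0 in 31). Within a run the rising stretch differed from the falling ones by -2.30 (95% interval -3.46 to -1.15), and it was lower in 48 of 63. With the bases of genes included the values were 2.32% ± 0.33 and 0.48% ± 0.41. The interval of the mean in rising stretches, -0.79 to 0.93, included 0 and did not reach an opposite skew of the size in falling ones.

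**Figure D3:**
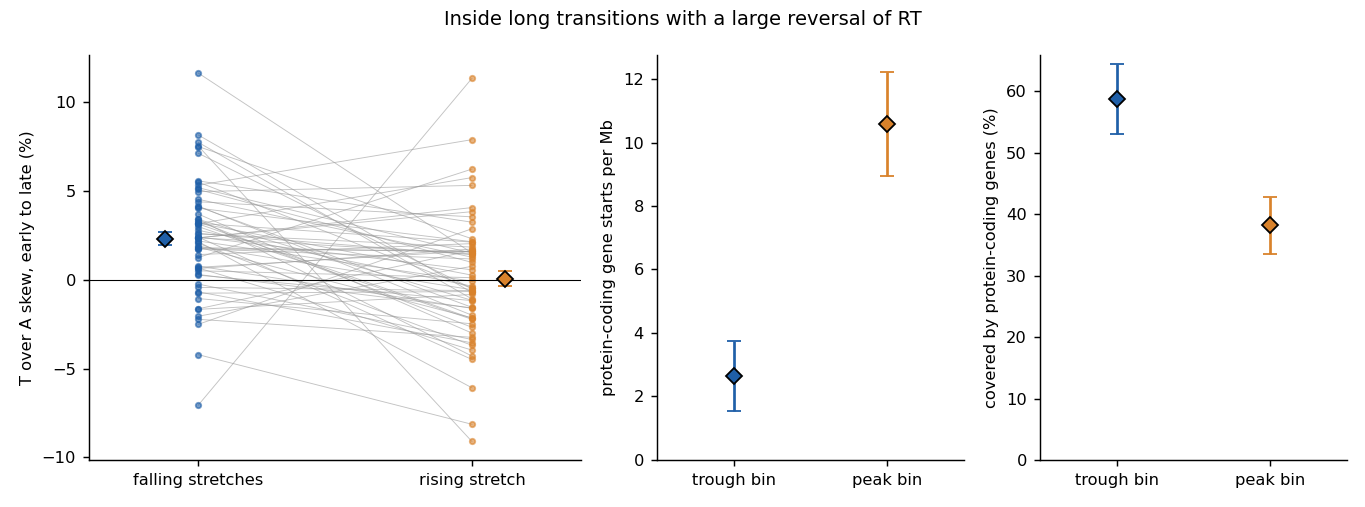
On the left, the T over A skew along the early-to-late strand (percent) in the falling and the rising stretches of the same run, joined by a line, for the 63 large reversals with both values, with the mean ± SE (diamonds, falling 2.33 over 67 runs, rising 0.07 over 63). The other panels give the mean ± SE over 68 runs of gene starts per Mb (trough 2.65, peak 10.6) and of the share covered by protein-coding genes (58.8 and 38.2%).

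Over whole runs the same measure set long and short transitions apart. T exceeded A by 1.72% ± 0.21 in long transitions (n = 214 with enough bases outside genes) and by 3.53% ± 0.16 in short ones (n = 752), a difference of -1.81 (95% interval -2.32 to -1.30) in the same direction on 17 of 19 autosomes. The value was above 0 in 160 of 214 long transitions (74.8%), beside 83.8% of short ones. G exceeded C by 0.45% ± 0.09 and 0.91% ± 0.07. The skew was thus present in long transitions and smaller. With the bases of genes included, the T over A skew was 1.79% ± 0.16 in long and 3.36% ± 0.12 in short transitions.

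The skew was lower in longer classes, but it did not fall at every step and was not lower at 6 bins than at 5. Mean T over A skew was 3.88% at 2 bins, 3.78% at 3, 3.09% at 4, 2.37% at 5, 2.52% at 6, 1.35% at 7 to 8, 1.65% at 9 to 11 and 1.24% at 12 bins or more. The classes of 5 and 6 bins overlapped within their SE of 0.41 and 0.49, those of 6 and of 7 to 8 bins did not, and the 3 longest classes did. This overlap of SE over transitions is a description and not a test. One-way long runs had 2.48% ± 0.56, small reversals 1.49% ± 0.28 and large reversals 1.45% ± 0.29. With the bases of genes included, one-way runs had 2.04% ± 0.33 and small reversals 1.88% ± 0.26, which overlapped within their SE. Bins at the same distance from the center of a transition were also set side by side, where the center is the crossing of RT 0, and with several crossings the point midway between the outermost. At the center the skew was 1.28% in long and 3.72% in short transitions. At 300 kb to the late side it was 2.28 and 1.55%, and at 500 kb to the early side -0.09 and -1.75%. Pooled over all members, the excess of T was therefore lower at the center and wider in long transitions. This did not hold alike for each shape. In the bin 50 kb to the early side it was 3.87% in the 56 one-way runs, 1.52% in the 68 large reversals and 3.72% in short transitions. In the center bin the one-way runs had 1.77% and the large reversals 0.36%. With several crossings the center can lie inside a reversal.

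**Figure D4:**
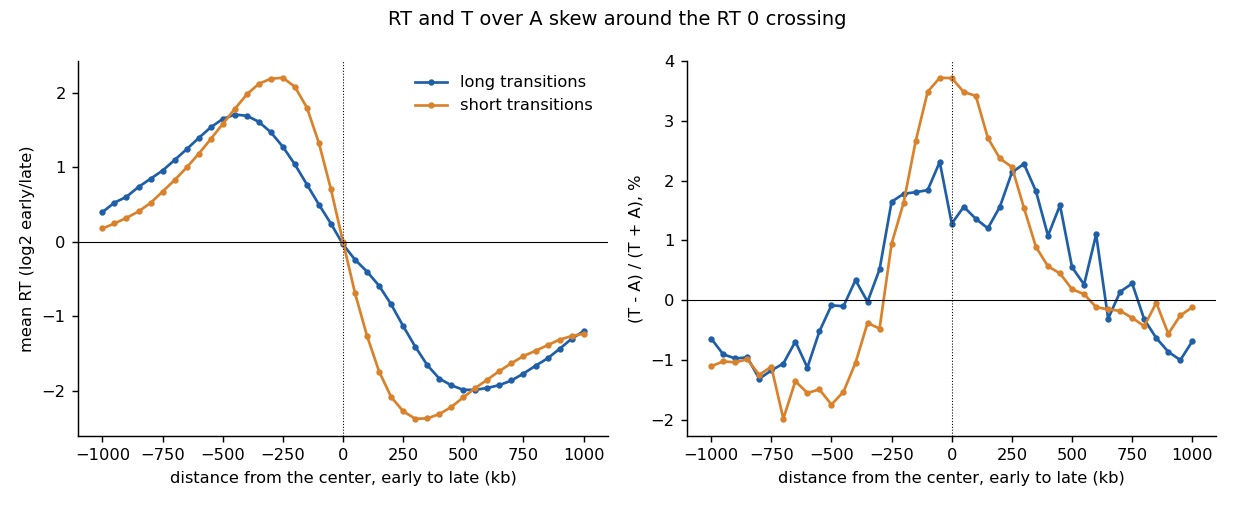
Mean RT (left, log2) and T over A skew outside annotated genes (right, percent, bases pooled) in 50 kb bins from 1000 kb on the early side to 1000 kb on the late side of the center, for 221 long and 855 short transitions. Short transitions show a skew peak of 3.72% at the center, and long transitions values between 1.203 and 2.31% from 250 kb before to 300 kb after it.

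In base composition, long transitions were richer in GC, poorer in repeats and more covered by genes. GC content was 42.9% ± 0.15 (SE, n = 221) against 42.3% ± 0.08 in short transitions (difference 0.64, 0.31 to 0.97, higher on 16 of 19 autosomes). CpG occurred 9.10 ± 0.13 times per kb against 8.44 ± 0.07. Masked repeats made up 29.7% ± 0.56 against 34.8% ± 0.41 (difference -5.05, -6.41 to -3.70, lower on 17 of 19). Protein-coding genes covered 49.2% ± 1.88 against 36.2% ± 1.23 (difference 13.0, 8.62 to 17.4, higher on 17 of 19). These differences also ran along length: coverage was 23.0% at 2 bins, 36.0% at 3, 46.5% at 4 and 44.9% at 5, so short transitions of 4 or 5 bins resembled long ones. The 279 runs that returned to the same state had 42.7% GC, 29.8% masked bases and 49.2% coverage.

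**Figure D5:**
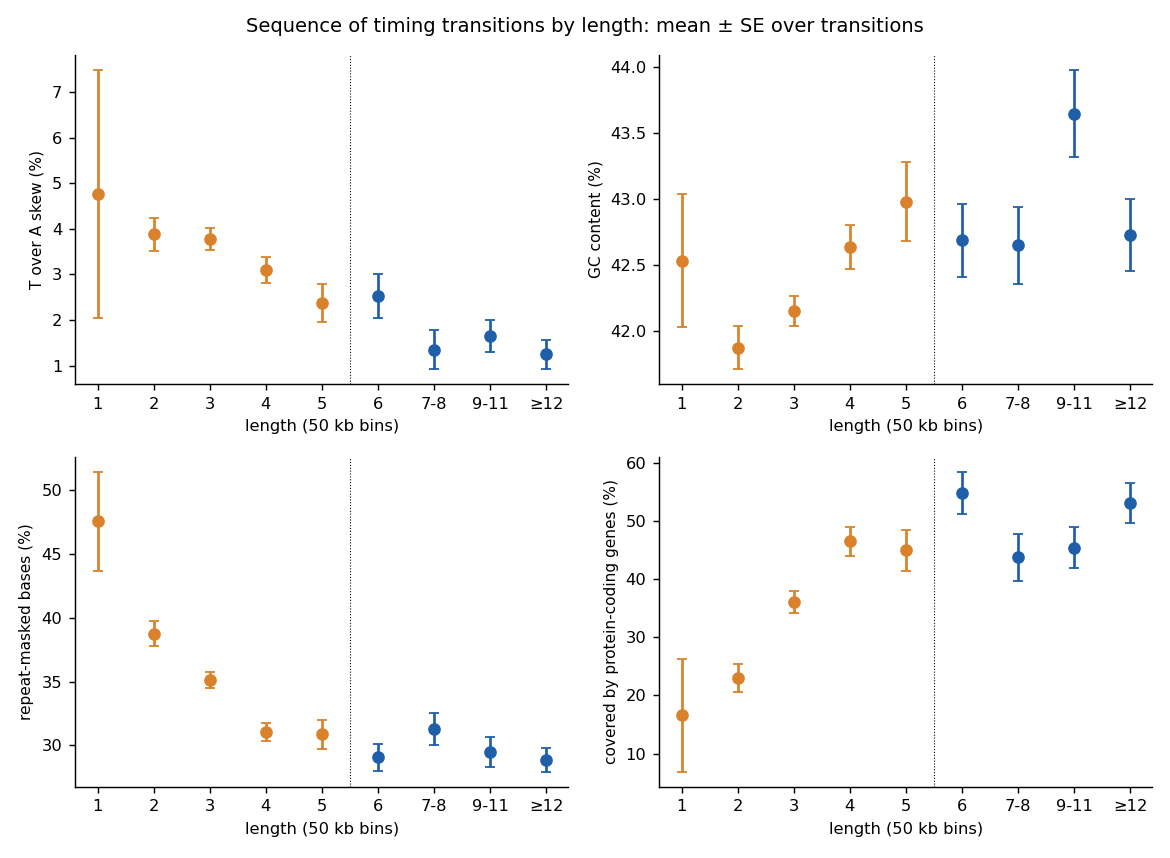
Mean ± SE over transitions of the T over A skew, GC content, repeat-masked share and coverage by protein-coding genes (all in percent) against length in 50 kb bins, short transitions in orange and long ones in blue, with a dotted line at the length limit. Masked share falls and coverage rises from 2 to 4 bins (38.8 to 31.1% and 23.0 to 46.5%), and the skew is 2.37% at 5 bins and 2.52% at 6.

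The differences in composition were present at matched RT. At RT between -0.5 and 0, bins of long transitions (n = 634) had 42.9% ± 0.10 GC, 30.7% ± 0.47 masked bases and 45.6% ± 1.74 gene coverage, and bins of short ones (n = 657) 42.3% ± 0.10, 34.5% ± 0.56 and 36.8% ± 1.66. At RT between 0.5 and 1 the long transitions (n = 402) had 43.2, 28.8 and 53.6% and the short ones (n = 686) 42.7, 32.8 and 42.1%. Bins of a run lie next to each other and share genes, so these errors are too small.

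Along the members, oriented from early to late, most of the change in GC content and gene starts lay at their edges. GC content was 43.6% ± 0.16 in the 250 kb before the early end, 43.0, 43.0 and 42.7% in the early, middle and late parts of equal length, and 41.8% ± 0.15 in the 250 kb after the late end. The early flank was richer in GC than the late flank in 173 of 221 members (78.3%), and the early part richer than the late part in 138 (62.4%). The step from flank to flank was 1.78 percentage points ± 0.15, below the 2.18 ± 0.08 of short transitions. Gene starts fell from 10.8 ± 0.56 per Mb in the early flank to 6.56, 6.70 and 6.22 along the run and 3.49 ± 0.39 in the late flank. Coverage by genes instead fell mostly within the run, from 55.7% in the early part to 47.4 and 44.0%. It was 55.1% in the early flank and 39.8% in the late flank.

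The members held 652 starts of protein-coding genes, which is 3.14% of the 20732 such genes with a bin value, on 4.36% of the bins. Their genes were long, with a median of 35.3 kb against 17.5 kb for the 954 genes that start in short transitions and 17.6 kb for all autosomal genes. Genes of 100 to 300 kb covered 19.7% of the members, 13.2% of short transitions and 12.04% of all autosomal bins, while genes over 300 kb covered 14.9, 13.4 and 12.9%. In the 279 runs that returned to the same state the values were 17.9 and 15.3%, so this coverage was not particular to the members. No gene started in 35 of 221 members (15.8%) and in 430 of 855 short transitions (50.3%). Counted by bin, the share without a start was 75.1% in long and 75.1% in short transitions. Genes covered 90% or more of the run in 18 members (8.14%) and in 123 short transitions (14.4%), although mean coverage was higher in the members. Both counts per run depend on run length, with a median of 400 kb in long and 150 kb in short transitions. Start density was 6.46 ± 0.40 per Mb against 7.26 ± 0.44 in short transitions, a difference (-0.79, -1.96 to 0.38) whose interval includes 0. The interval excluded 0 with all annotated genes (-2.60, -4.84 to -0.36) and with runs of at least 5 bins as long (-1.31, -2.48 to -0.15).

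The center fell within a protein-coding gene in 103 of 221 members (46.6%, 39.9 to 53.4) and in 310 of 855 short transitions (36.3%, 33.0 to 39.6), beside 38.4% of transitions of any length. Both shares were close to the coverage by protein-coding genes of the bins at the center, 45.4% in long and 36.6% in short transitions. Over all autosomal bins coverage was 41.3%. Of the genes that start in members, 341 of 652 (52.3%, 48.4 to 56.2) were transcribed from the early toward the late side, and 454 of 954 (47.6%, 44.4 to 50.8) in short transitions. In all, 106 genes held a center, 59 of them transcribed from early to late, and 24 were longer than 300 kb, 16 of them transcribed that way.

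Some long genes spanned the whole change of RT. Ryr2 and Rabgap1l, not among the 10 longest that hold a center, were named after their values were seen. Ryr2, the calcium release channel of heart muscle, ran from RT 1.70 at its start to -2.001 at its end over 554 kb, and contained an entire run of 300 kb that was one-way. Immp2l, for a peptidase of the mitochondrial inner membrane, ran from 2.11 to -1.63 over 931 kb, and contained a run of 800 kb with a large reversal. Both were transcribed from early to late. Others ran the opposite way: Slit3, for an axon guidance ligand, began at -0.86 and ended at 2.15, and Auts2 began at -1.13 and ended at 0.57, with values between -3.05 and 1.57 inside the gene.

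Celf2, for an RNA-binding splicing regulator, began at -3.80 and ended at 0.35. Gpc6, a glypican gene, began at -1.75 and ended at -0.25 (transcribed from late to early). Zfhx3, a zinc finger homeobox gene, went from -1.17 to -0.10 with values up to 1.18 inside, and the run in its 3' part fell in the direction of transcription. Nav2, a gene of neuron migration, began at 0.12 and ended at 1.95, and Rabgap1l, for a GTPase-activating protein, began at 1.47 and ended at 0.45. Fars2, for the mitochondrial phenylalanyl-tRNA synthetase, lay wholly at intermediate RT, from 0.42 to -0.56 over 609 kb, and covered 81.2% of a run of 750 kb. The longest gene model with a center, Gm37240, spanned 1391 kb.

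The genes of known groups are read against the 3.14% of all genes that started in members. Of 25 core pluripotency genes 1 started there, Lin28b, which encodes an inhibitor of let-7 processing, at RT -0.41 in a run of 400 kb. Of 31 neural regulators 1 did, the paired box gene Pax3 (-0.22), and of 28 mesoderm and endoderm regulators none. Of 39 synaptic adhesion and axon guidance genes 2 did, Csmd2 (-0.64) and Tenm3, a teneurin, which began at 0.97 and covered 70.6% of a run of 700 kb. Of 16 large genes known as fragile sites 1 did, Dlg2 (-0.35), whose 1973 kb lay mostly beyond the run.

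The other lists gave Cdh4, for R-cadherin (0.47), 1 of 19 classical cadherins, and the sodium channel gene Scn2a (0.84), 1 of 25 channel subunits. None of 31 ligand-gated receptor subunits started in a member. Of 32 genes of replication and its timing 1 did, Cdc7, for the kinase that activates origins, at RT -0.23 in a run of 700 kb. Of 35 ribosomal protein genes 1 did, Rpl34, at 0.997, just under the limit. Among families read from symbols, 14 of 1128 olfactory receptor genes (1.24%) and 17 of 411 Zfp genes (4.14%) started in members, beside 3.14% of all genes. The counts of the lists are too small to set a list apart. Among the families, the olfactory receptor share was below that of all genes, and no difference was tested.

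Members were spread over all 19 autosomes, from 5 members on chromosome 15 to 21 on chromosome 1. As a share of transitions they ranged from 12.8% on chromosome 15 to 25.5% on chromosome 5, and from 4.81 per 100 Mb on chromosome 15 to 13.3 on chromosome 13. Along the assembly 109 had their early end first and 112 their late end. Among 1057 pairs of neighboring transitions both were long in 38, exactly 1 in 359 and neither in 660, and in 21 of the 38 the domain between was late.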

How the data were processed

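Replication timing was taken from the authors' population-based Repli-seq profile. The deposited log2 values, 1 per 50 kb bin, are the ratio of early over late reads, each fraction scaled to its sequencing depth (RPM). Whether and how the 2 replicates were combined, and any smoothing or filter on bins, is not given in the sources used here. The submitters' processing notes name Bowtie2, SAMtools, bedtools and mm10. No count per library was analysed, so depth is unknown.

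The rule was applied to the 47928 autosomal bins without smoothing. Bases, CpG and repeat masking (lower case) came from RefSeq GRCm38.p6, whose chromosome lengths contained all bins, and genes from GENCODE vM21. Skew is (T - A)/(T + A) or (G - C)/(G + C) on the strand read from early to late, outside annotated genes. Errors are SE over transitions, 95% intervals are normal ones from the SE or exact binomial. A straight line was fitted to the bins of a run with the bin on either side. The search was run as a check of the code on a simulated profile of straight transitions without noise, reversals or missing bins. That check cannot show how the search performs on noisy or reversing runs.

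The members, gene lists and shape classes were chosen with earlier results of these data known. Regions named are the 10 longest runs, that with most crossings of RT 0, the longest one-way run and that closest to a straight line by residual SD. Genes named are the 3 with the largest overlap with each, the longest genes that hold a center, and list members. Alternatives covered RT limits, smoothing, run length, missing bins, X, gene models, position of the center and bases used. Python 3.11.15, numpy 2.4.6, pandas 2.3.3 and scipy 1.17.1 were used. The sequence at the late end of the second longest run is not reported here.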

Additional observations from a re-analysis of the deposited data

How the results depend on the processing

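Of 145 alternative values, 126 stayed within the 95% interval of the reported value (counts within 1.5 times), 17 moved and 2 changed sign. With RT limits at 0.8 and -0.8 there were 143 long transitions of 1303 bins, 12.1% of all transitions, and 16.1% were one-way. With limits at 1.2 and -1.2 they held 3170 bins, 30.0% of all transitions were long and 31.8% were one-way. A running median over 5 bins gave a long share of 24.7% and a one-way share of 41.2%. With at least 8 bins there were 125, with a median of 550 kb, a long share of 11.6%, a GC skew of 0.26% and a one-way share of 5.60%, and with at least 5 bins the long share was 27.6% and the one-way share 41.1%. The difference in gene start density changed sign to 0.0174 per Mb with limits at 0.8 and -0.8 and to 0.017 with the running median (intervals -1.34 to 1.37 and -1.18 to 1.21). It was -2.60 (-4.84 to -0.36) with all annotated genes and -1.31 (-2.48 to -0.15) with at least 5 bins, and its interval included 0 under the other alternatives run. The cause was not tested beyond what the settings themselves change. The differences in T over A skew, GC content, masked share and gene coverage kept their direction under all alternatives run. Those between rising and falling stretches and between peaks and troughs also kept theirs. For these, the alternative of at least 5 bins could change nothing, since none of the 76 runs of 5 bins had a large reversal. These alternatives for T over A skew, coverage, masking, shape and reversals, and leaving out the longest run, were chosen after seeing the data. No paired analysis was possible because all libraries share 1 value per bin. That value also limits the depth of every statement to 1 cell line and 50 kb.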

Other observations

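On the X chromosome, which the rule leaves out, 14 of 60 transitions (23.3%, exact 95% interval 13.4 to 36.0) were long by the same limits. They held 136 bins, with a median length of 350 kb, and 4 were one-way. The longest covered chrX:139200001-140400000, 1200 kb. T exceeded A along the early-to-late strand by 1.11% ± 0.87 (SE, n = 14, above 0 in 7) in long and by 2.75% ± 0.63 (n = 43) in short transitions. GC content was 40.9% in long and 40.5% in short transitions of the X, and protein-coding genes covered 31.9 and 30.1%.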
